A study of Homo sapiens with 12 samples.

Results

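The zinc finger genes of chromosome 19 were taken from both tables by a fixed rule, namely protein-coding genes on chromosome 19 whose symbol is ZNF followed by a number. The rule found 202 genes in at least 1 of the tables, of 34227 genes of any kind listed there, and 153 of the 202 stood in both tables. A gene was tested in a cell line where its mean over the 6 libraries reached 10 normalized counts, which held for 166 of the 202 genes in SCC15 and 136 in SCC25. Of these, 128 were tested in both cell lines, 38 in SCC15 alone and 8 in SCC25 alone, and 28 were tested in neither. RNA was sequenced from SCC15 and SCC25, which are established lines of human head and neck squamous cell carcinoma (HNSCC), labelled as wild type oral squamous cells. Each line received squamocin, a member of the annonaceous acetogenins (ACGs) that gave the treated group its label, or the solvent DMSO, for 24 h. The 12 libraries make 4 groups of 3. The labels do not say whether the libraries of a group came from separate cultures, so the p-values measure only the spread between these libraries.

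Most of these genes encode C2H2 zinc finger proteins, in which an array of fingers reads a DNA sequence and an N-terminal KRAB domain recruits the corepressor TRIM28. TRIM28 in turn brings the histone methyltransferase SETDB1, heterochromatin protein 1 and histone deacetylases, and the resulting heterochromatin silences transposable elements and genes. The family grew by repeated tandem duplication, which left dense clusters of related genes along chromosome 19. Their transcripts are usually present at low levels, and many of the proteins have no known target. The comparison of squamocin with DMSO in each cell line, and of the responses of the lines, asks how the RNA levels of this gene family moved.

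Each library held between 16665563 and 22748845 reads on genes. A normalized count is the number of reads of a gene divided by 1 size factor of its library, set by the authors separately for each cell line. Squamocin library 3 of SCC15 stood apart from the other libraries of its group. Its chi-square per degree of freedom was 69.4 and 61.3 against libraries 1 and 2, where the other 10 pairs of replicates had values between 1.74 and 10.9. Squamocin library 3 of SCC25 had the highest of these, 7.21 and 10.9 against libraries 1 and 2, and the rest reached at most 3.6. The totals of lower and higher zinc finger genes are therefore given with and without squamocin library 3 of each line. Other counts of these genes include both libraries. Equal library totals in place of the size factors moved the median log2 fold change of all genes to -0.48 in SCC15 and -0.22 in SCC25, a shift that bears on every direction given here. Of the squamous markers, KRT5 averaged 5.41 normalized counts with squamocin and 9.50 with DMSO in SCC15, and 4748 and 5627 in SCC25. TP63 was at 10.5 and 17.5 in SCC15 and at 6781 and 4512 in SCC25, so KRT5 and TP63 were close to absent from SCC15. EPCAM was low there too, at 9.99 and 11.4, beside 5901 and 2942 in SCC25. The other markers of the list were present in SCC15, where KRT14 averaged 1440 and 759, KRT6A 116 and 134 and CDH1 491 and 525. In SCC25, they averaged 779 and 372, 210 and 97.8, and 3789 and 5204. The sum of leukocyte markers lay between 6.84 and 34.2 normalized counts in every library. All 3 endothelial markers were lower with squamocin in SCC25, where their sum fell from between 231 and 294 to between 19.8 and 36.6, while in SCC15 the sum, nearly all PECAM1, fell from between 158 and 178 to between 66.1 and 77.1. The part of this in the results was not tested.

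The zinc finger genes of chromosome 19 were mostly lower after squamocin in both cell lines. In SCC15 cells, 111 of 166 were lower and 13 were higher (limma, adjusted p under 0.05), where 30% of all genes tested were lower and 30.9% were higher. In SCC25 cells, 78 of 136 were lower and 26 were higher, against 38.5% and 38.3% of all genes tested. Genes past the threshold in either direction made up 61% of all genes in SCC15 and 76.8% in SCC25. A fall of more than 1 on the log2 scale was seen for 70 of the 166 genes in SCC15 and 30 of the 136 in SCC25, where 14.6% and 17% of all genes fell as far, and a rise of that size for 8 and 4 genes, beside 12.6% and 13.9%. The median log2 fold change of the zinc finger genes was -0.79 in SCC15, beside 0.01 for all genes, and -0.44 in SCC25, beside -0.01 for all genes. Without squamocin library 3, 120 genes were lower and 17 higher in SCC15, with a median of -0.78, beside 37.2% and 38.4% of all genes. Without squamocin library 3 of SCC25, 79 were lower and 28 higher there, with a median of -0.40, beside 39.3% and 39.4% of all genes. With equal library totals, 139 genes were lower and 9 higher in SCC15 and 89 lower and 19 higher in SCC25, and the medians of -1.29 and -0.65 lay below those of all genes, -0.48 and -0.22. Of all genes, 50.5% were then lower and 14.8% higher in SCC15, and 47.4% and 30.4% in SCC25. In bulk RNA, less transcript in every cell and transcript in fewer cells cannot be told apart.

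The summed level was lower as well. The normalized counts of the 166 genes tested in SCC15 summed to 34130 ± 1573 (SD, n = 3) with squamocin and 42100 ± 454 with DMSO, and those of the 136 genes tested in SCC25 to 28340 ± 394 and 31800 ± 255. The normalized total of all genes was higher with squamocin in both lines, as the size factors there were smaller (0.787 to 0.962, beside 1.11 to 1.26 with DMSO). The totals of reads overlapped between the treatments in both lines. The share of the total, which does not depend on the size factors, therefore fell further than the sum. The 166 genes tested in SCC15 held 0.163%, 0.159% and 0.146% of all normalized counts in the 3 squamocin libraries and 0.269%, 0.274% and 0.271% in the 3 DMSO libraries. The 136 genes tested in SCC25 held 0.134%, 0.135% and 0.134% with squamocin and 0.175%, 0.173% and 0.173% with DMSO. The treatments did not overlap in either cell line. Every squamocin library lay below every DMSO library for 120 of 166 genes in SCC15 and 82 of 136 in SCC25, beside 34.9% and 39.6% of all genes tested. The reverse held for 17 and 27 genes, beside 35.7% and 39.4%.

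Neighbours on the chromosome and relatives elsewhere in the genome are the natural points of reference. The 224 zinc finger genes of other chromosomes tested in SCC15 had a median log2 fold change of -0.64, with 135 lower and 29 higher, and the 216 tested in SCC25 had a median of -0.39, with 120 lower and 48 higher. The other protein-coding genes of chromosome 19 went the other way in SCC15, where 340 of 739 were higher and 140 lower with a median of 0.33, and this median became -0.16 with equal library totals. In SCC25, 363 of 760 were lower and 244 higher, with a median of -0.19. With a correction for transcript length and GC content, the medians of these neighbours were 0.11 in SCC15 and 0.04 in SCC25. In SCC25, 278 of them were then lower and 303 higher, beside 37.9% and 38.4% of all genes, so their direction there depended on the correction. The medians of the zinc finger genes of chromosome 19 were nearer to those of the zinc finger genes of other chromosomes than to those of the rest of their own chromosome, as the cumulative curves show, a comparison made without a test.

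**Figure D1:**
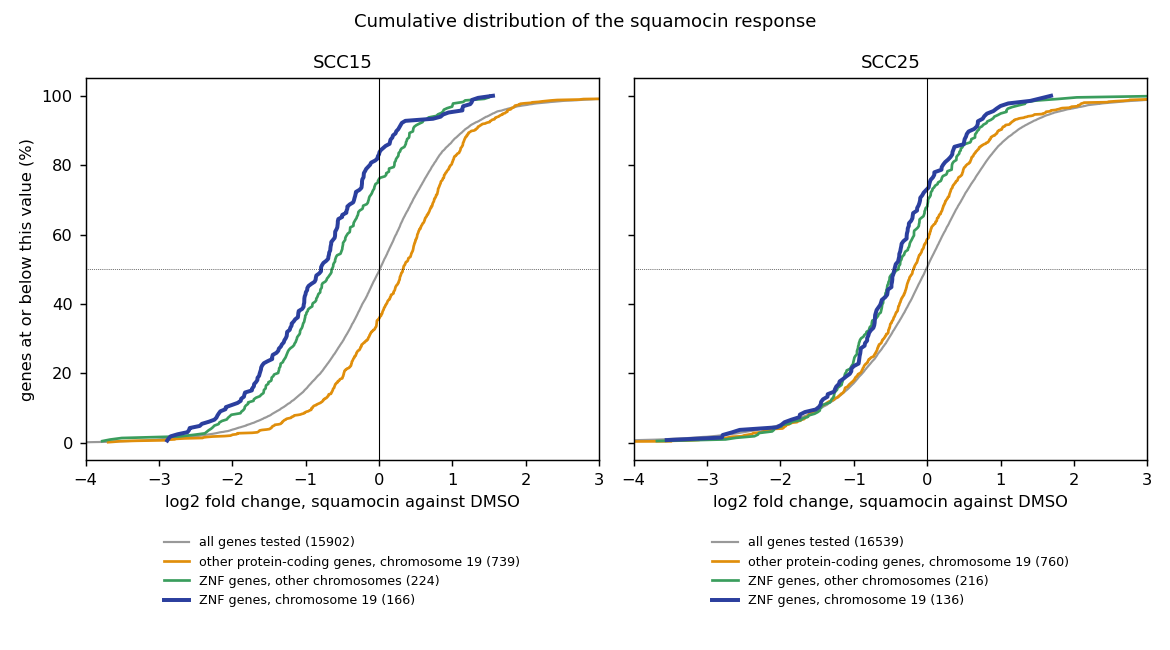
Cumulative share of genes (%) at or below each log2 fold change of squamocin against DMSO, in SCC15 (left) and SCC25 (right), for the zinc finger (ZNF) genes of chromosome 19, those of other chromosomes, the other protein-coding genes of chromosome 19 and all genes tested, with the number of genes in brackets. The curve of the chromosome 19 zinc finger genes crosses 50% at -0.79 in SCC15 and at -0.44 in SCC25, close to the zinc finger genes of other chromosomes (-0.64 and -0.39).

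ZNF302 had the largest fall in SCC15 among the genes with a mean of at least 50 normalized counts and no overlap of the treatments, and it fell in SCC25 as well. It lies at chr19:34677639-34686397 (GRCh38, plus strand) and shares no bases with another listed gene. In SCC15, its normalized count was 70.7, 55.9 and 88.3 with squamocin and 496, 534 and 553 with DMSO. These are means of 71.6 ± 16.3 and 527 ± 29.0 (SD, n = 3), a 7.39-fold decrease (log2 fold change -2.89, SE 0.17, limma adjusted p = 2.54e-05). In SCC25, it was 71.2, 127 and 82.2 with squamocin and 301, 274 and 343 with DMSO, 3.34-fold lower (log2 fold change -1.74, SE 0.18, limma adjusted p = 1.90e-06). The treatments were far apart in both lines, and the fall was larger in SCC15 by 1.15 on the log2 scale (limma adjusted p = 0.00492), a difference that had an adjusted p of 0.06 with a correction for transcript length and GC content.

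ZNF324 and ZNF324B, a duplicated pair near the end of the long arm, fell together. ZNF324B (chr19:58451604-58457833) had 13.9, 23.9 and 11.2 normalized counts with squamocin and 122, 120 and 117 with DMSO in SCC15, and 29.2, 8.32 and 26.6 against 118, 124 and 132 in SCC25. Its log2 fold change was -2.87 (SE 0.28, limma adjusted p = 0.000164) in SCC15 and -2.66 (SE 0.36, limma adjusted p = 2.07e-05) in SCC25. ZNF324 (chr19:58467045-58475436), which shares bases with 1 gene of the same strand, was at 44.1, 53.6 and 38.6 with squamocin and 232, 248 and 252 with DMSO in SCC15. In SCC25, its values were 53.4, 58.2 and 58.8 with squamocin and 239, 242 and 235 with DMSO. It was 5.33-fold lower in SCC15 (limma adjusted p = 3.39e-05) and 4.14-fold lower in SCC25 (limma adjusted p = 7.55e-09). All squamocin libraries of both genes lay below all DMSO libraries, and the difference between the cell lines had a limma adjusted p of 0.776 for ZNF324B and 0.124 for ZNF324. How reads that fit both copies were treated in the authors' counting was not tested.

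The promoters of 8 genes that the results turn on are shown, so that duplicated pairs and genes that fell or rose can be set side by side. They are the 250 bases before the RefSeq transcription start (GRCh38.p14), written 5′ to 3′ on the strand of the gene, with the dinucleotide CG in capitals, which reads the same on both strands. The first 3 fell in both lines.
ZNF302, chr19:34677428-34677677, plus strand: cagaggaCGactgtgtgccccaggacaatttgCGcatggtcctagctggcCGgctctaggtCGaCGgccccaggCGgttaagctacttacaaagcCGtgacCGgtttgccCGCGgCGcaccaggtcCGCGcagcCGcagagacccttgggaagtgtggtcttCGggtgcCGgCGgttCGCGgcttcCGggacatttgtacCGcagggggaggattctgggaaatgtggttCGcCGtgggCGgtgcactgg
ZNF324, chr19:58466830-58467079, plus strand: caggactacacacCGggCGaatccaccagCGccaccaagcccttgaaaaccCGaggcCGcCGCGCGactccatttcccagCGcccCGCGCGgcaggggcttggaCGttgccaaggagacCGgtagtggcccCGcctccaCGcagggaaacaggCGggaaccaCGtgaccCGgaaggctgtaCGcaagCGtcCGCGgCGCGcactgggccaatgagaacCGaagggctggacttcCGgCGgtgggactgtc
ZNF324B, chr19:58451372-58451621, plus strand: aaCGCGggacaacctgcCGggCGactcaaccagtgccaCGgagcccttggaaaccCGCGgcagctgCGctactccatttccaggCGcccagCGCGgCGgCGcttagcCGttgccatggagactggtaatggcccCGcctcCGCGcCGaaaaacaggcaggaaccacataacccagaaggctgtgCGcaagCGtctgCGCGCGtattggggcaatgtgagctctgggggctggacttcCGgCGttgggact
The ZNF324 and ZNF324B windows held 28 and 25 CG dinucleotides and were identical at 79.2% of the columns of their alignment, and the ZNF302 window held 24. CG occurred in 100% of the 176 promoters of these genes that could be matched by symbol and in 93.6% of all 27305 promoters of the table. A match is a description of these letters and says nothing about a factor. The median number was 17 per 250 bases in the zinc finger genes of chromosome 19 and 19 in the protein-coding genes listed here.

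ZNF780A and ZNF780B, neighbours on the minus strand that share bases with another gene of that strand, fell more in SCC15 than in SCC25. ZNF780B had 64.9, 52.4 and 52.3 normalized counts with squamocin and 331, 349 and 351 with DMSO in SCC15, 6.02-fold lower (limma adjusted p = 1.50e-05). In SCC25, it had 90.2, 109 and 104 against 281, 257 and 243, 2.56-fold lower (limma adjusted p = 2.91e-07). ZNF780A went from 445, 450 and 466 with DMSO to 107, 94.6 and 117 with squamocin in SCC15, while in SCC25 it went from 184, 193 and 213 to 140, 175 and 113. The responses differed by 1.23 for ZNF780B (limma adjusted p = 8.15e-05) and by 1.61 for ZNF780A (limma adjusted p = 3.53e-05) on the log2 scale, with no overlap of treatments in either line.

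The other large falls were spread over the chromosome. In SCC15, ZNF253 was 5.98-fold, ZNF221 5.44-fold, ZNF543 4.99-fold and ZNF606 4.64-fold lower, with limma adjusted p between 5.22e-05 and 0.000133. In SCC25, ZNF792 was 6.96-fold, ZNF416 5.88-fold, ZNF557 3.96-fold, ZNF155 3.85-fold and ZNF551 3.61-fold lower, with limma adjusted p between 3.94e-07 and 2.42e-05. ZNF221 fell even more in SCC25, from 68.5, 72.9 and 89.4 with DMSO to 5.08, 6.24 and 5.55 with squamocin, 11.7-fold lower (limma adjusted p = 8.18e-08), but its mean there was under the 50 normalized counts that the rule for naming asks. ZNF253 and ZNF606 have no row in the SCC25 table used here. In all, 18 of 166 genes in SCC15 and 6 of 136 in SCC25 fell by more than 2 on the log2 scale, beside 3.69% and 5.08% of all genes tested, so the count in SCC25 was close to the background.

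**Figure D2:**
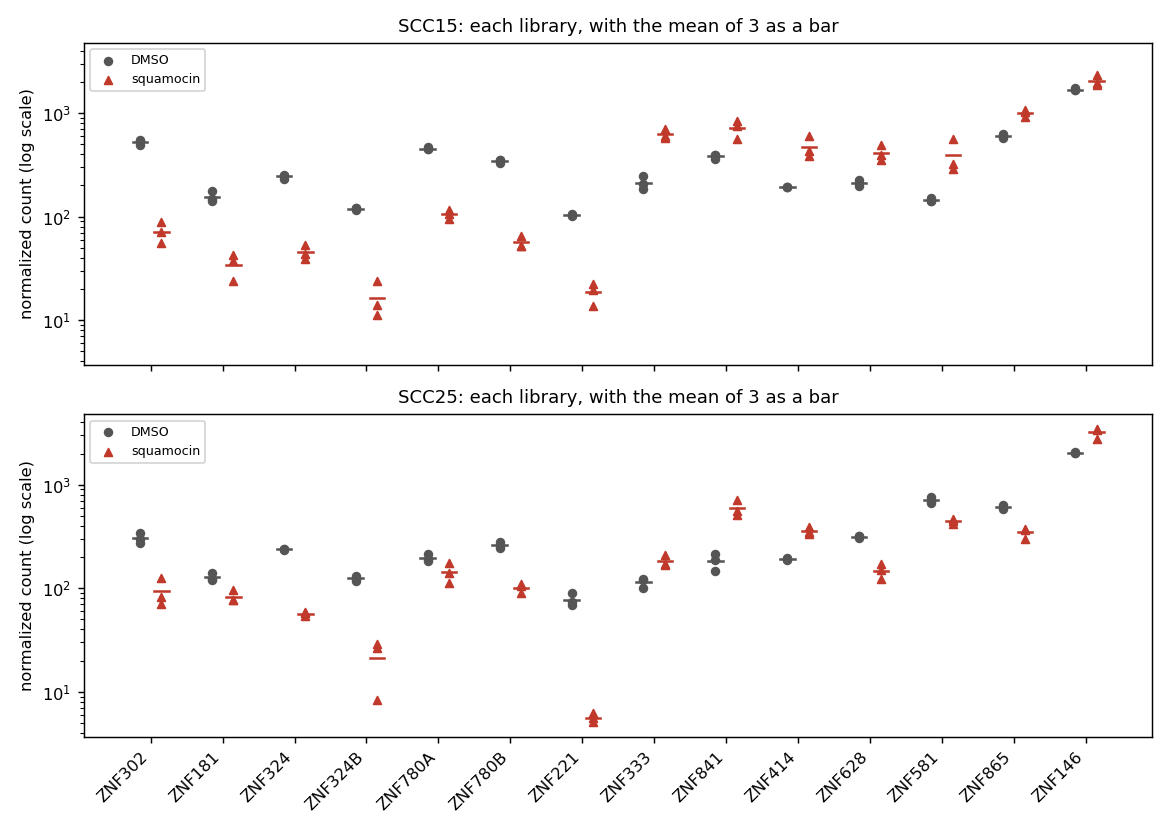
Normalized count (log scale) of 14 zinc finger genes of chromosome 19 in each library of SCC15 (top) and SCC25 (bottom), with DMSO as grey circles, squamocin as red triangles and the mean of 3 libraries as a bar. The 7 genes on the left, ZNF302 to ZNF221, are lower with squamocin in both lines, ZNF333, ZNF841 and ZNF414 are higher in both, and ZNF628, ZNF581 and ZNF865 rise in SCC15 but fall in SCC25.

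Only 6 genes were higher in both cell lines, namely ZNF333, ZNF841, ZNF414, ZNF579, ZNF787 and ZNF146, of the 128 tested in both, where 22.1% of all genes tested in both were. ZNF333 (chr19:14689801-14733746) rose the most in SCC15, to 604, 695 and 577 with squamocin from 208, 246 and 185 with DMSO (2.94-fold, log2 fold change 1.55 with SE 0.14, limma adjusted p = 0.000103). In SCC25, it was at 173, 167 and 209 against 122.5, 99.8 and 119 (1.60-fold, limma adjusted p = 0.000453). ZNF333 shares bases with 2 genes of the opposite strand, and the sources do not state that the counting used strand. ZNF841 (chr19:52064466-52095765) rose the most in SCC25, to 506, 556 and 708 from 186, 148 and 214 (3.22-fold, limma adjusted p = 2.54e-07). In SCC15, it was at 833, 748 and 560 against 359, 398 and 396 (1.83-fold, limma adjusted p = 0.00208), a rise that had an adjusted p of 0.149 with equal library totals. ZNF841 shares bases with 1 gene of its own strand. The treatments did not overlap for either gene.

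Their promoters differ in CG content, with 12 dinucleotides in the ZNF333 window and 17 in that of ZNF841.
ZNF333, chr19:14689798-14690047, plus strand: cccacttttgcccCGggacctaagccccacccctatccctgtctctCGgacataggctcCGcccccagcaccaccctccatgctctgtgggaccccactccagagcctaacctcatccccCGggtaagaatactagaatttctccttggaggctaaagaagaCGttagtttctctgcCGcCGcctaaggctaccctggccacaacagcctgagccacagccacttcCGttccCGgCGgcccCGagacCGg
ZNF841, chr19:52095766-52096015, minus strand: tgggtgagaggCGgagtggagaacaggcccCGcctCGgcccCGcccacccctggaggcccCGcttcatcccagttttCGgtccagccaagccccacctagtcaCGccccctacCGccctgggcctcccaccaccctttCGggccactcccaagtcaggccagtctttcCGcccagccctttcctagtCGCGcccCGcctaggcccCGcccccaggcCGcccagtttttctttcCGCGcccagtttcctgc
Over all 176 matched promoters the number ran from 1 to 39.

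ZNF414, ZNF579 and ZNF787 rose in both lines as well. In SCC15, ZNF414 was at 388, 431 and 605 with squamocin and 193, 193 and 194 with DMSO, and in SCC25 at 389, 334 and 353 against 188, 192 and 194. Its log2 fold change was 1.27 (SE 0.17, limma adjusted p = 0.000599) and 0.90 (SE 0.09, limma adjusted p = 1.16e-06). ZNF579 rose 2.22-fold (limma adjusted p = 0.000778) and 1.76-fold (limma adjusted p = 4.89e-07), and ZNF787 rose 2.37-fold (limma adjusted p = 0.000608) and 1.29-fold (limma adjusted p = 5.97e-05), in SCC15 and SCC25. In SCC15, the highest value of each of the 3 genes was that of squamocin library 3, and without it the log2 fold changes were 1.08, 0.98 and 1.05.

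ZNF146, also called OZF, consists of fingers without a KRAB domain and had the highest mean of the family in both lines. It was at 1887, 1974 and 2317 with squamocin and 1657, 1757 and 1655 with DMSO in SCC15, and at 3354, 3455 and 2773 against 2053, 2026 and 2036 in SCC25. The rise in SCC25 was 1.56-fold (limma adjusted p = 2.70e-06). The rise of 1.21-fold in SCC15 (limma adjusted p = 0.0418) became a log2 fold change of -0.22 with equal library totals (limma adjusted p = 0.0333) and had adjusted p between 0.0676 and 0.135 without squamocin library 2 or without any 1 of the DMSO libraries.

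The responses of the cell lines were tested against each other for the 128 genes tested in both. The difference passed the test for 63 of them, of which 45 were higher in SCC25 and 18 lower, beside 26% and 26.1% of all 14454 genes tested in both, of which 52.2% passed the test either way. With equal library totals, 68 were higher and 10 lower. Both lines called 57 of the 128 genes lower, beside 18.6% of all genes. Across the 128 genes the responses of the lines correlated with a Pearson r of 0.58 and a Spearman rho of 0.57, a description over genes that share the 12 libraries, and 94 had the same sign. Over all 14454 genes the values were 0.61 and 0.56, with 10004 of the same sign, so the likeness of the lines was close to that of genes in general.

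**Figure D3:**
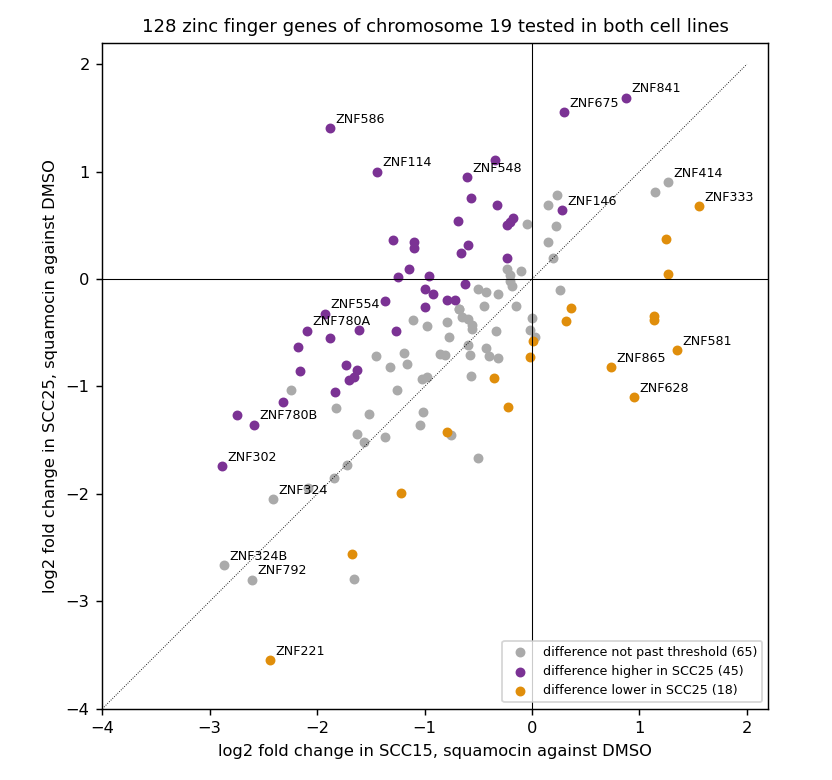
Log2 fold change of squamocin against DMSO in SCC15 (horizontal) and SCC25 (vertical) for each of the 128 zinc finger genes tested in both cell lines, coloured by the test of the difference between the lines (45 higher in SCC25, 18 lower, 65 not past the threshold), with the line of equal response dotted. Most points lie in the lower left, 81 genes being below 0 in both lines.

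A rise in SCC15 with a fall in SCC25 was called for 5 of the 128, ZNF628, ZNF581, ZNF865, ZNF428 and ZNF358. Of all genes tested in both, 5.44% had such calls, so the count of 5 was no more than the background. ZNF628 was at 394, 351 and 495 with squamocin and 212, 198 and 225 with DMSO in SCC15, and at 149, 123 and 171 against 317, 305 and 323 in SCC25. Its log2 fold changes of 0.95 (limma adjusted p = 0.00113) and -1.10 (limma adjusted p = 2.73e-06) differed by -2.05 (SE 0.20, limma adjusted p = 3.73e-06). The treatments were apart in both lines, in opposite order.

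ZNF581 and ZNF865 repeated this pattern. ZNF581, which shares bases with 2 genes of its strand, was at 287, 320 and 566 against 142, 143 and 153 in SCC15 and at 444, 471 and 421 against 673, 756 and 690 in SCC25. ZNF865 was at 923, 1066 and 1020 against 625, 568 and 609 in SCC15 and at 370, 301 and 366 against 640, 581 and 603 in SCC25. Their responses differed by -2.02 (limma adjusted p = 4.67e-05) and -1.55 (limma adjusted p = 1.40e-06). The rise of ZNF865 in SCC15 had an adjusted p of 0.0797 with equal library totals. For ZNF581, ZNF428, ZNF358 and ZNF524, squamocin library 3 of SCC15 lay well above libraries 1 and 2, as 1385 against 678 and 707 for ZNF428. Without it, their log2 fold changes in SCC15 were 1.05, 0.81, 0.82 and 0.95, and all 4 still passed the test.

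Lower in SCC15 and higher in SCC25 were 9 genes, beside 4.66% of all genes tested in both. ZNF548 went from 268, 239 and 253 with DMSO to 182, 182 and 138 with squamocin in SCC15, and from 281, 249 and 290 to 498, 526 and 560 in SCC25. Its responses differed by 1.55 on the log2 scale (SE 0.17, limma adjusted p = 9.30e-06), and it shares bases with 2 genes of its strand. ZNF114 was low in SCC15, at 11.6, 5.70 and 11.2 with squamocin and 22.2, 33.2 and 25.3 with DMSO, and rose from 41.1, 42.3 and 34.5 to 64.8, 93.6 and 82.2 in SCC25 (difference 2.45, limma adjusted p = 0.000215). The neighbours ZNF714 and ZNF431, chosen after their values were seen, both fell in SCC15 (log2 fold changes -0.69 and -0.60) and rose in SCC25 (0.54 and 0.32). With the correction for transcript length and GC content, ZNF431 had adjusted p of 0.496 in SCC15, 0.063 in SCC25 and 0.168 for the difference, and its rise in SCC25 had an adjusted p of 0.132 with equal library totals.

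ZNF586 and ZNF675 rose in SCC25 and did not pass the test in SCC15. ZNF586 was at 447, 419 and 463 with squamocin and 157, 178 and 165 with DMSO there (2.65-fold, limma adjusted p = 1.50e-08). In SCC15, it was at 17.4, 1.14 and 18.7 with squamocin and 35.8, 34.0 and 28.8 with DMSO, where the limma adjusted p was 0.0782, and 0.0316 and 0.00074 without squamocin library 2 or 3. The difference of 3.28 (limma adjusted p = 0.00613) became 2.23 without squamocin library 2 of SCC15, which held 1 read. ZNF675, also known as TIZ, binds the signalling adaptor TRAF6. In SCC25, ZNF675 was at 367, 350 and 371 with squamocin and 134, 121 and 115 with DMSO (2.93-fold, limma adjusted p = 1.45e-08). It was at 502, 426 and 435 against 377, 335 and 397 in SCC15 (log2 fold change 0.30, limma adjusted p = 0.0516), which became -0.20 with equal library totals and had an adjusted p of 0.00322 without squamocin library 3.

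Other genes fell in SCC15 with a smaller change in SCC25. ZNF554 went from 116, 107 and 86.4 with DMSO to 19.7, 25.1 and 36.1 with squamocin in SCC15, while the values in SCC25 were 110, 98.9 and 108 with DMSO and 87.7, 74.9 and 91.0 with squamocin (log2 fold change -0.32, limma adjusted p = 0.0530, and 0.00447 with equal library totals). The responses differed by 1.60 (limma adjusted p = 0.000524). ZNF181 was 4.54-fold lower in SCC15 and 1.55-fold lower in SCC25, a difference of 1.55 (limma adjusted p = 0.000514).

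Ordered along the chromosome, 188 of the 202 genes fell into 10 blocks of at least 5 genes in which neighbouring starts were at most 1 Mb apart. In SCC15, each of the 10 blocks had a median log2 fold change below 0, from -0.01 in the block ZNF554 to ZNF77 to -2.40 in the block ZNF302 to ZNF792. In SCC25, 9 of 10 had a median below 0, and the block ZNF430 to ZNF100 had a median of 0.26 over 4 genes tested. The block of ZNF302, ZNF181, ZNF599, ZNF30 and ZNF792 (chr19:34677639-34964049) had the lowest median in both lines. In it, 4 of 4 genes were lower in SCC15 and 4 of 5 were lower in SCC25 at a median of -1.36. Over the whole family, 66.9% and 57.4% were lower, beside 30% and 38.5% of all genes tested. In SCC15, ZNF599, named after its values were seen, had adjusted p between 0.053 and 0.056 without squamocin library 2 or without any 1 of the DMSO libraries.

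The distal block of 52 genes from ZNF628 to ZNF446 held both directions. In SCC15, 32 of 48 were lower and 6 higher, and in SCC25 34 of 47 were lower and 9 higher. Over the whole family, 66.9% were lower and 7.83% higher in SCC15, and 57.4% and 19.1% in SCC25. Of all genes tested, 30% were lower and 30.9% higher in SCC15, and 38.5% and 38.3% in SCC25. The 6 genes of this block that rose in SCC15 were ZNF628, ZNF579, ZNF524, ZNF865, ZNF581 and ZNF787. All 6 lie at the proximal end of the block, between 55476332 and 56121280. Among them lie ZNF784, which fell in SCC15 (log2 fold change -0.60, limma adjusted p = 0.0215), and ZNF580 (0.31, limma adjusted p = 0.191). In SCC25, ZNF579 and ZNF787 of these rose, ZNF628, ZNF865 and ZNF581 fell, and ZNF524 was at 198, 231 and 225 with squamocin and 216, 196 and 221 with DMSO (limma adjusted p = 0.692). ZNF784 and ZNF580 fell in SCC25. This stretch was described after the calls were known.

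**Figure D4:**
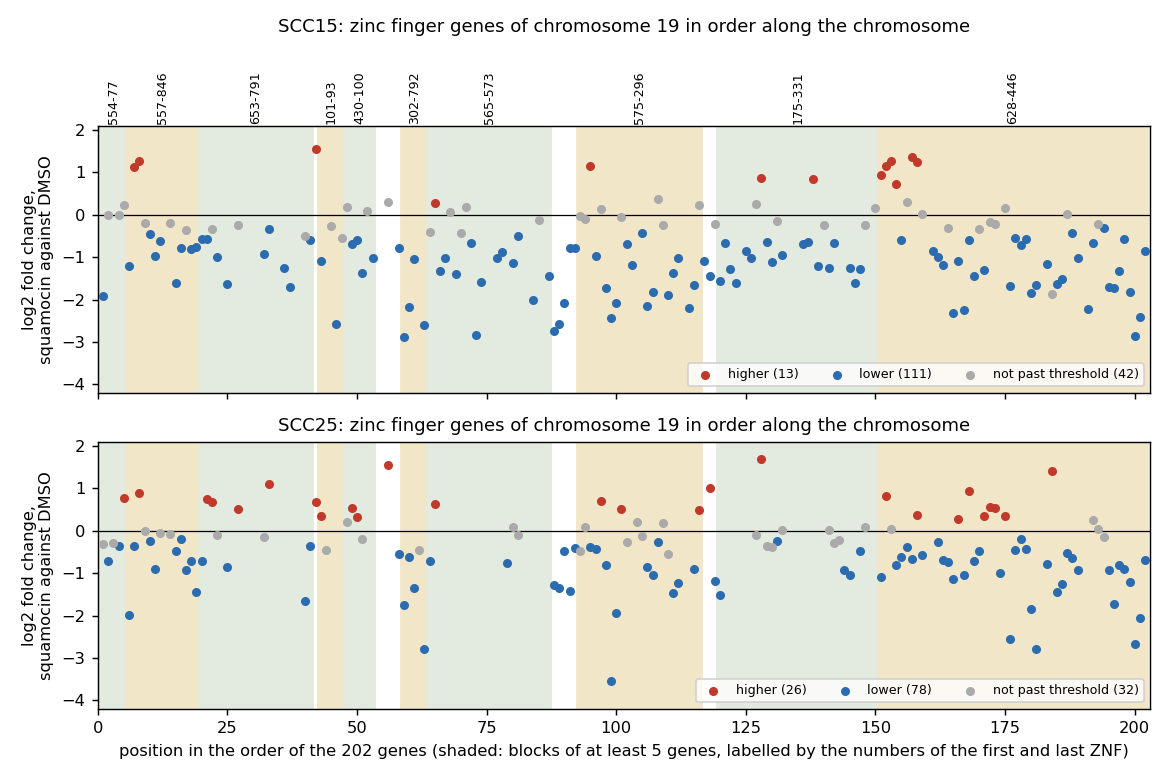
Log2 fold change of squamocin against DMSO for each tested gene in SCC15 (top) and SCC25 (bottom), placed by its order among the 202 zinc finger genes along chromosome 19, with red for higher, blue for lower and grey for not past the threshold. Shaded bands are the 10 blocks, named by the ZNF numbers of their first and last genes, and in SCC15 each block has more blue than red points.

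The cell lines also differed in which of these genes reached the level for testing. Of the 166 tested in SCC15, 38 were not tested in SCC25, where 5.72% of all protein-coding genes tested in SCC15 were not. Conversely, 8 of the 136 tested in SCC25 were not tested in SCC15, beside 8.09%. Of the 38, 27 have no row in the SCC25 table used here, and 21 had a mean of at least 100 normalized counts in SCC15. In the block ZNF565 to ZNF573, 18 of 24 genes were tested in SCC15 and 5 in SCC25, and in the block ZNF175 to ZNF331 it was 24 and 14 of 31. The tables were normalized separately, so levels are set side by side without a test.

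ZNF83 had the highest mean in SCC15 of the 38 genes. It had 1929, 1951 and 1635 normalized counts with squamocin and 1026, 1054 and 988 with DMSO, a 1.79-fold rise (limma adjusted p = 0.000327) that had an adjusted p of 0.0696 with equal library totals. It shares bases with 2 genes of its own strand and 1 of the other. In SCC25, it had 1 read in squamocin library 2, 1 in DMSO library 3 and 0 in the other 4 libraries. Another 6 genes tested in SCC15, ZNF600, ZNF585A, ZNF525, ZNF614, ZNF850 and ZNF615, had at most 3 reads in each SCC25 library. In SCC15, these 6 had means between 68.9 and 174 normalized counts. For ZNF556 the order was reversed, with 36.6 to 63.4 normalized counts in SCC25 and at most 2 reads in each SCC15 library.

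The neighbours ZNF585A and ZNF585B were each measured in a different line, ZNF585B being chosen after its values were seen. ZNF585A was at 126, 117 and 95.8 with squamocin and 202, 210 and 210 with DMSO in SCC15, 1.84-fold lower (limma adjusted p = 0.00130), and had 1 read at most in each SCC25 library. ZNF585B was at 61.0, 32.2 and 30.0 with squamocin and 76.6, 61.2 and 64.6 with DMSO in SCC25, 1.70-fold lower (limma adjusted p = 0.0158), and had at most 4 reads in each SCC15 library. The call for ZNF585B had adjusted p of 0.0517 without squamocin library 2 and 0.0695 without DMSO library 1. The 2 promoters, shown with that of ZNF83, were identical at 70.7% of the columns of their alignment. The ZNF585B window, set by its RefSeq start, lies inside the gene as listed with the counts (chr19:37181579-37218153, minus strand). That of ZNF585A lies at the listed start of its gene, 37172741.
ZNF585A, chr19:37172696-37172945, minus strand: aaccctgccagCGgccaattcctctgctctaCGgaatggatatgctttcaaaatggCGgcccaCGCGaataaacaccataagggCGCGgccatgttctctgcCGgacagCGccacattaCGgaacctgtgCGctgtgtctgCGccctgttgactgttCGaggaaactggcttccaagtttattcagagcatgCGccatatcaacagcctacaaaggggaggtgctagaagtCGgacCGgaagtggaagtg
ZNF585B, chr19:37210537-37210786, minus strand: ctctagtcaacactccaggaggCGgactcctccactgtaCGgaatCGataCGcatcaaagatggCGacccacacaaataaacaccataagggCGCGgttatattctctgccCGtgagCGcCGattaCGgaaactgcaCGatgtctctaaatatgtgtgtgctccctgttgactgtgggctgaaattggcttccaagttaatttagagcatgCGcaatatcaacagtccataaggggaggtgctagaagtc
ZNF83, chr19:52690497-52690746, minus strand: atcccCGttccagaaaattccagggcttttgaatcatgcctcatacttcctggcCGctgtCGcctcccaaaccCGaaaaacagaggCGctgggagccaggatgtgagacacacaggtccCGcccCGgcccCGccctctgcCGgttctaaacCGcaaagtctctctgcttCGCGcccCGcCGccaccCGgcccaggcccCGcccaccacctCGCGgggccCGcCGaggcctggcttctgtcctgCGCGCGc
The windows held 16, 13 and 23 CG dinucleotides. DNA methylation was not measured here.

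Of 14 members with a known role that were listed for this work, 13 stood in the tables, all tested in SCC15 and 7 in SCC25, and ZNF91 had no row. In SCC15, 8 of 13 were lower and 1 higher, and in SCC25 4 of 7 were lower and 1 higher, where 30% and 38.5% of all genes and 111 of 166 and 78 of 136 of the family were lower. ZNF175 (OTK18), described as a repressor of the HIV promoter, fell 2.97-fold in SCC15 (limma adjusted p = 0.000161) and 2.86-fold in SCC25 (limma adjusted p = 6.60e-05). ZNF417 and ZNF587, a pair that binds endogenous retroviruses, fell in both lines, ZNF417 by 2.04-fold and 1.90-fold and ZNF587 by 1.35-fold and 1.56-fold. The fall of ZNF587 in SCC15 had an adjusted p of 0.684 with the correction for transcript length and GC content, and between 0.0553 and 0.0789 without squamocin library 2 or any 1 of the DMSO libraries.

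ZNF611, which binds SVA elements, ZNF420 (APAK), a regulator of p53, ZNF649 and ZNF382 fell in SCC15 by 2.31-fold, 2.02-fold, 2.44-fold and 2.63-fold (limma adjusted p 0.000279, 0.00208, 0.0121 and 0.0151). None of these 4 has a row in the SCC25 table used here. The fall of ZNF382, whose values were 4.64 to 24.7 normalized counts, had an adjusted p of 0.0759 with the correction for transcript length and GC content and of 0.0547 and 0.0539 without DMSO libraries 1 and 2. ZNF473 (ZFP100), a component of the histone mRNA processing complex, was at 301, 334 and 274 against 361, 355 and 345 in SCC15 (limma adjusted p = 0.102) and fell in SCC25 from 401, 424 and 393 to 179, 166 and 185 (2.29-fold, limma adjusted p = 5.77e-08). The difference was -0.97 (limma adjusted p = 6.03e-05), and with equal library totals the log2 fold change in SCC15 was -0.72 (limma adjusted p = 0.004).

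ZNF274, which recruits SETDB1 to zinc finger gene clusters, did not pass the test in either line. It was at 603, 522 and 509 with squamocin and 581, 664 and 643 with DMSO in SCC15 (limma adjusted p = 0.119), and at 494, 486 and 568 against 511, 515 and 483 in SCC25 (limma adjusted p = 0.693). The treatments overlapped in both, and with equal library totals the log2 fold changes were -0.71 (limma adjusted p = 0.00367) and -0.17 (limma adjusted p = 0.0584). With the correction for transcript length and GC content, ZNF274 instead rose in SCC25 (0.32, limma adjusted p = 0.000909). ZNF224, a KRAB repressor of the aldolase A gene, fell 1.35-fold in SCC15 (limma adjusted p = 0.0455), with adjusted p between 0.0921 and 0.148 without any 1 of the DMSO libraries and 0.183 with the correction, and had a log2 fold change of -0.12 in SCC25 (limma adjusted p = 0.248). The value for ZNF224 in SCC25 was -0.32 with equal library totals (limma adjusted p = 0.00535) and -0.28 with the correction (limma adjusted p = 0.0147). ZNF331, an imprinted gene, had a log2 fold change of 0.16 (limma adjusted p = 0.240, -0.34 with equal library totals, and 0.42 with an adjusted p of 0.0145 with the correction), and ZNF93, a repressor of LINE-1 elements, one of -0.55 (limma adjusted p = 0.293), both in SCC15 alone.

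As over all genes at the same levels, level and response went together among the zinc finger genes. Their means over 6 libraries ran from 10.5 to 1870 normalized counts in SCC15 (median 154) and from 12.8 to 2620 in SCC25 (median 129). Per kilobase of the longest transcript, the highest levels in SCC15 were 568 for ZNF428, 518 for ZNF787 and 496 for ZNF146, beside a median of 35.7. In SCC25, they were 692 for ZNF146, 484 for ZNF787 and 435 for ZNF581, beside a median of 32.9.

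The genes were split by mean count into 3 sets of nearly equal size. In SCC15, the lowest set had a median log2 fold change of -1.31 with 42 of 56 lower and 0 higher. The highest set had a median of -0.25 with 27 of 56 lower and 13 higher, so all 13 genes that rose were in that set. Over all genes with means in the same ranges, the medians were -0.33 and 0.06, with 35% lower and 18% higher in the lowest range and 29.3% and 34.3% in the highest. In SCC25, the medians of the lowest and highest sets were -0.72 and -0.26, beside -0.34 and 0.09 for all genes in the same ranges. The share called lower there hardly changed, at 57.8% and 58.7%, beside 41% and 36.8% of all genes. Higher were 4 of 45 and 14 of 46 genes, beside 24.5% and 45.8%. Across the genes, the Spearman correlation of mean count and log2 fold change was 0.49 in SCC15 (166 genes) and 0.33 in SCC25 (136 genes), a description in which both measures come from the same libraries.

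**Figure D5:**
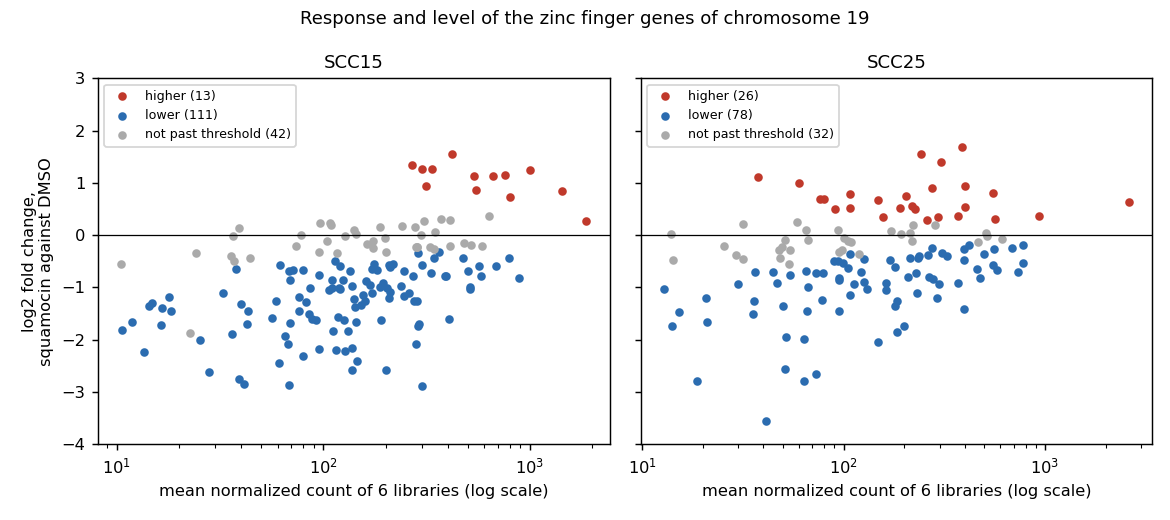
Log2 fold change of squamocin against DMSO against the mean normalized count over the 6 libraries (log scale) for each zinc finger gene of chromosome 19 tested in SCC15 (left) and SCC25 (right), coloured by call. In SCC15 the 13 genes that rose all lie in the highest of 3 sets by level, from 245.5 normalized counts up, and in SCC25 the 26 that rose are spread from 4 in the lowest set to 14 in the highest.

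The transcripts of these genes were long and poor in GC. The median GC content of the longest transcript was 43.0% for the genes tested in SCC15 and 43.6% for those tested in SCC25, beside 48.2% and 48.1% for all genes, and the median lengths were 4230 and 4217 bases, beside 3390 and 3343. In SCC15, the genes with the lowest GC content fell the most, with medians of -0.98, -0.81 and -0.56 from the lowest to the highest of 3 sets, where all genes in the same ranges of GC content had medians of -0.04, -0.11 and 0.05. In SCC25 the medians were -0.21, -0.54 and -0.49, beside 0.30, 0.05 and -0.22 for all genes. Of the 13 genes that rose in SCC15, 9 were in the set of shortest transcripts and 0 in that of the longest. Whether all genes of these lengths did the same was not tested. With a correction for transcript length and GC content, an alternative added once the data were known, 99 genes were lower and 22 higher in SCC15 with a median of -0.58, and 80 lower and 24 higher in SCC25 with a median of -0.43. Of all genes, 29% were then lower and 33.3% higher in SCC15, and 37.9% and 38.4% in SCC25. The number of CG dinucleotides in the promoter had a Spearman correlation with the response of -0.03 in SCC15 (147 genes) and -0.20 in SCC25 (122 genes).

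A list of 24 genes held corepressors of KRAB zinc finger proteins with general heterochromatin and DNA methylation genes, all called partners here. Of these, 23 were tested in each line, TASOR standing in the tables under its older name FAM208A. In SCC15, 9 were lower and 3 higher, with a median log2 fold change of -0.33, and in SCC25 12 were lower and 6 higher, with a median of -0.16, where 30% and 30.9% of all genes were lower and higher in SCC15 and 38.5% and 38.3% in SCC25. With equal library totals, it was 18 lower and 1 higher in SCC15 and 17 and 5 in SCC25, beside 50.5% and 47.4% of all genes lower. The count of 3 higher in SCC15 became 6 without squamocin library 3 and 1 without DMSO library 2 or 3. TRIM28 itself was at 4727 ± 604 normalized counts (SD, n = 3) with squamocin and 4240 ± 187 with DMSO in SCC15 (limma adjusted p = 0.267), with a log2 fold change of -0.35 under equal library totals (limma adjusted p = 0.00547). In SCC25, TRIM28 fell from 5287 ± 123 to 3592 ± 160 (log2 fold change -0.56, limma adjusted p = 1.18e-07). SETDB1 was at 699 ± 62.8 against 594 ± 15.5 in SCC15 (limma adjusted p = 0.0695) and fell from 717 ± 26.1 to 422 ± 55.0 in SCC25 (limma adjusted p = 3.93e-06).

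Among the partners, UHRF1, which maintains DNA methylation at replication, fell in both lines, with log2 fold changes of -1.63 in SCC15 and -1.47 in SCC25 (limma adjusted p = 0.00018 and 2.88e-10). MORC2, a partner of the HUSH silencing complex, fell by 0.47 and 1.00. The HP1 genes were not uniform, as CBX5 fell in both lines (log2 fold changes -1.07 and -0.40) and CBX1 had log2 fold changes of 0.30 and 0.71, the first of which became -0.20 with equal library totals. MBD1, a methyl-CpG binding protein, rose by 1.26 and 0.87. CHD4 had the largest rise of the list in SCC25 (log2 fold change 1.51, limma adjusted p = 1.72e-09). In SCC15, CHD4 had a log2 fold change of 0.10 (limma adjusted p = 0.735). Whether the level of any partner bears on the zinc finger genes was not tested.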

How the data were processed

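Total RNA from 12 libraries of SCC15 and SCC25 cells, 3 per treatment and cell line, was sequenced by the study. Per the submitters' processing notes, reads were aligned with HISAT2 2.0.5 and counted with featureCounts 1.5.0-p3 on GRCh38. The annotation release is not given in the sources used here. For each cell line the authors deposited a table of signal, that is, reads counted on a gene and scaled by 1 size factor (0.787 to 1.26) for each library. Undoing this division returned whole reads (within 0.01) for 100% of values, 16665563 to 22748845 per library. The SCC25 columns are headed FPKM, but their values are of this same kind. The tables also hold the authors' group means, fold changes and p-values, which were not used.

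A gene entered the test where its 6 libraries of a table averaged 10 or more, using limma 3.58.1 (R 4.3.3), two-sided, on log2(value + 1) with a mean-variance trend and Benjamini-Hochberg adjustment over all genes tested, at 0.05. Fold changes are on this scale and understate those of low genes. The difference between cell lines was a contrast of the 4 group means. A comparison of 3 with 3 libraries could not go below p = 0.1 in an exact permutation test of a single gene. Alternatives were the count models of edgeR 4.0.16 and DESeq2 1.42.0, run on whole reads, other scalings, filters and pseudocounts, a replicate block, and leaving out each library. A correction for transcript length and GC content (GENCODE release 44) was an addition made with the data in view. The scripts were tested on simulated data.

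Genes were named by rule: in each line the 8 largest rises and 8 largest falls among called genes averaging 50 or more whose treatments did not overlap, the 6 largest differences between lines with a mean of at least 50 in both, the 5 highest means, genes at no more than 3 reads in every library of the other line, and the listed genes. The members and lists were chosen with earlier results of these data known. Of the 202 genes, 123 share bases with another listed gene (61 on the same strand, 92 on the opposite strand). Their counts may depend on how reads in the shared bases were treated. Promoters came from RefSeq (GRCh38.p14), with 176 of 202 symbols matched. The sum of the fibroblast markers was 204 to 235 with squamocin and 274 to 320 with DMSO in SCC15, and 1073 to 1228 and 764 to 810 in SCC25.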

Additional observations from a re-analysis of the deposited data

Results flagged for a closer look

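The squamocin response differed between the cell lines, by the test of the difference itself (limma, adjusted p under 0.05), for 27 of the named genes. Each value is the log2 fold change in SCC25 minus that in SCC15.

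The response was lower in SCC25 by the differences of -2.05 for ZNF628, -2.02 for ZNF581, -1.55 for ZNF865, -1.52 for ZNF428, -1.49 for ZNF358, -1.22 for ZNF524, -1.11 for ZNF221, -0.968 for ZNF473, -0.88 for ZNF416, -0.877 for ZNF333, -0.874 for ZNF787 and -0.771 for ZNF557. The difference of ZNF416 had adjusted p between 0.0526 and 0.128 in 9 of the 12 fits that left out 1 library, and it was also lost with TMM factors, edgeR, all genes above 0, equal library totals, a pseudocount of 10, the replicate block and the correction for transcript length and GC content (adjusted p 0.0515 to 0.172). The difference of ZNF787 was -0.205 with that correction (adjusted p = 0.09). The difference of ZNF557 was -0.481 (adjusted p = 0.112) with equal library totals, and that of ZNF221 was -0.467 (adjusted p = 0.09) with a pseudocount of 10.

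The response was higher in SCC25 by 0.361 for ZNF146, 0.591 for ZNF121, 0.816 for ZNF841, 0.914 for ZNF431, 1.15 for ZNF302, 1.17 for ZNF543, 1.23 for ZNF714, 1.23 for ZNF780B, 1.25 for ZNF675, 1.55 for ZNF548, 1.55 for ZNF181, 1.60 for ZNF554, 1.61 for ZNF780A, 2.45 for ZNF114 and 3.28 for ZNF586. The difference of ZNF146 had adjusted p between 0.056 and 0.0921 in the 10 fits, each leaving out 1 library, in which it was lost, 0.0535 with all genes above 0 and 0.055 with the replicate block. With the correction for transcript length and GC content, the differences were 0.0683 for ZNF146 (adjusted p = 0.629), 0.16 for ZNF121 (adjusted p = 0.275), 0.241 for ZNF431 (adjusted p = 0.168) and 0.645 for ZNF302 (adjusted p = 0.06). ZNF586 rests on few reads in SCC15, and ZNF114 averaged 18.2 normalized counts there.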

How the results depend on the processing

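The direction of the medians held under every alternative run, and their size moved. The SCC15 median was -0.832 with TMM factors, -0.849 with edgeR, -0.743 with all genes above 0, -0.681 with at least 10 in every library, -0.763 with a pseudocount of 10, -1.29 with equal library totals, -0.581 with the length and GC correction, -0.996 over genes that share no bases with another gene and -0.604 over genes with a mean of at least 100. It lay between -0.82 and -0.773 when 1 library was left out. The SCC25 median was -0.38 with all genes above 0 or at least 10 in every library, -0.381 with a pseudocount of 10, -0.647 with equal library totals and -0.351 over genes with a mean of at least 100, and between -0.47 and -0.40 without 1 library.

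In SCC15, 22 genes were higher with the length and GC correction. Of the 59 genes there that share no bases, 3 were higher and 46 lower. Of the 113 with a mean of at least 100, 70 were lower. Past a log2 fold change of 1, 8 were higher and 70 lower. Of 51 genes in SCC25 that share no bases, 5 were higher and 33 lower, 46 of 80 with a mean of at least 100 were lower, and past 1 the counts were 4 and 30. Of all genes tested, not restricted in these ways, 30% were lower and 30.9% higher in SCC15, and 38.5% and 38.3% in SCC25. With equal library totals, the difference was higher in SCC25 for 68 genes and lower for 10, and of the partners in SCC15 1 was higher and 18 lower. Leaving out 1 library gave 12 to 17 genes higher and 95 to 120 lower in SCC15, 24 to 28 and 70 to 79 in SCC25, and 1 to 6 partners higher in SCC15, with 6 without squamocin library 3 and 1 without DMSO library 2 or 3.

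With equal library totals, the sign turned in SCC15 for ZNF146 (-0.217), ZNF331 (-0.337), ZNF675 (-0.20) and ZNF77 (-0.257) and in SCC25 for ZNF274 (-0.173) and ZNF524 (-0.161). In SCC25, leaving out 1 library gave ZNF274 values from -0.0369, without squamocin library 3, to 0.0764 and ZNF524 values from -0.00614, without DMSO library 2, to 0.113. The cause was not tested. Of the other values of named genes, 2122 kept direction and call, 77 lost the call and 22 gained it.

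Same-numbered squamocin and DMSO libraries did not deviate together (correlations -0.0511 to 0.0078). This check cannot show whether they shared a culture or a batch. With a replicate block, 12 genes were higher and 107 lower in SCC15 and 26 and 79 in SCC25, and the difference was called higher in SCC25 for 43 and lower for 16. The counts over all genes with the block are not given here.

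On the whole reads, edgeR called 115 of the zinc finger genes of chromosome 19 lower and 12 higher in SCC15, and 79 and 26 in SCC25. Of all genes, it called 5168 lower and 4712 higher of 15902 in SCC15, and 6506 and 6298 of 16539 in SCC25. DESeq2 called 112 zinc finger genes lower and 13 higher in SCC15 and 74 and 25 in SCC25. Of all genes, DESeq2 called 4897 lower and 5067 higher in SCC15, and 6103 and 6093 in SCC25.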
